A study of Bos taurus with 2 samples.

Results

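Solute carriers that move sugars, amino acids, monocarboxylates, zinc and phosphate were followed across the cell types of the cow's mammary gland. The members were all genes whose symbol begins with SLC1A, SLC2A, SLC3A, SLC7A, SLC16A, SLC30A, SLC34A, SLC38A or SLC39A in the gene lists of both libraries, which gave 87 of 27270 genes. The families had 7 (SLC1A), 13 (SLC2A), 2 (SLC3A), 13 (SLC7A), 14 (SLC16A), 10 (SLC30A), 3 (SLC34A), 11 (SLC38A) and 14 (SLC39A) members. SLC2A4RG and SLC7A6OS meet the rule by name but are no carriers, and they are counted among the 87. Over both libraries 71 members had 20 or more transcripts (unique molecular identifiers, UMIs), 11 had fewer, and SLC1A6, SLC7A3, SLC30A8, SLC30A10 and SLC34A1 had 0.

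Mammary gland tissue of the Holstein breed was profiled by droplet single-cell RNA sequencing with the 10x Genomics 3' V3 kit, in 1 library of an adult in lactation and 1 library of a newborn. Fat was trimmed off before the tissue was digested with hyaluronidase, collagenases and DNase and strained, and dead cells were removed where viability was low, so fat cells and cells lost to the enzymes are not represented. The labels give no genotype, treatment, exact age or number of animals behind a library. With 1 library per stage, stage, animal and library cannot be told apart, and no test of a difference was possible. Levels are given as counts per 1000000 UMIs (CPM) of all barcodes of a cell class, intervals are exact 95% intervals that cover counting error only, and a UMI is counted at the 3' end, so levels do not scale with transcript length.

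Milk is made by drawing glucose, amino acids and minerals from the blood across the basal membrane of the secretory cell. Glucose enters through SLC2A carriers and is turned into lactose, amino acids enter through exchangers and sodium-coupled carriers and are built into caseins, and zinc and phosphate are passed on into milk. The SLC39A family carries zinc and related metals into the cytosol, and the SLC30A family moves zinc out of it into vesicles or out of the cell. SLC3A2 is the heavy chain that brings SLC7A5, SLC7A7, SLC7A8 and related light chains to the membrane.

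The adult library held 15897 barcodes with a median of 2723 UMIs, and the newborn library 13772 with a median of 4581. Barcodes were put into classes by marker genes, after which the adult library had 409 milk-secreting, 762 luminal, 239 stromal, 2636 endothelial and 8294 immune barcodes. The newborn library had 12159 stromal, 92 endothelial and 564 immune barcodes, and 0 of 13710 kept barcodes were milk-secreting or luminal. With 3 barcodes as the floor, this allows a share of up to 0.0219% that passes these gates. It is no bound on the epithelial share, since 694 newborn barcodes met no gate and 201 passed gates of several lineages. The classes were gated on these markers, so marker sums describe the gate and are no check of it. The 14 milk-secreting markers summed to 763946 CPM in milk-secreting and 12379 CPM in luminal barcodes. The 14 luminal markers summed to 2494 and 30689 CPM. Basal cells, of which the adult library had 12 and the newborn 0, were not compared. Barcodes passing both the basal and the luminal gate counted as luminal. The 7 basal markers summed to 926 CPM in luminal and 9.36 CPM in milk-secreting barcodes, so the luminal class also carries basal marker RNA. The 2 libraries shared 57 barcode sequences, and leaving them out gave the same number of members higher and lower by 2-fold in each of the 5 comparisons.

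In milk-secreting barcodes 76.0% of UMIs came from 7 milk protein genes (4 caseins, LALBA, PAEP and GLYCAM1), against 1.12% in luminal, 2.20% in stromal, 1.43% in endothelial and 2.32% in immune barcodes. The members together made up 605 CPM (594 to 616) in milk-secreting, 1371 CPM in luminal, 1492 CPM in stromal, 1591 CPM in endothelial and 1284 CPM in immune barcodes, so on all UMIs the milk-secreting class was lowest. Per 1000000 UMIs other than those of the milk protein genes (non-milk CPM) the order turned, with 2521 in milk-secreting barcodes and 1314 to 1614 in the other 4 classes. Per barcode, milk-secreting cells held 29.4 member UMIs, luminal cells 23.5 and immune cells 4.13, with a median depth of 37087, 11903 and 2724 UMIs. Counts of members against the milk-secreting class are therefore given on both scales. So are values or ratios of most named members whose direction between milk-secreting and luminal barcodes turns with the scale.

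**Figure D1:**
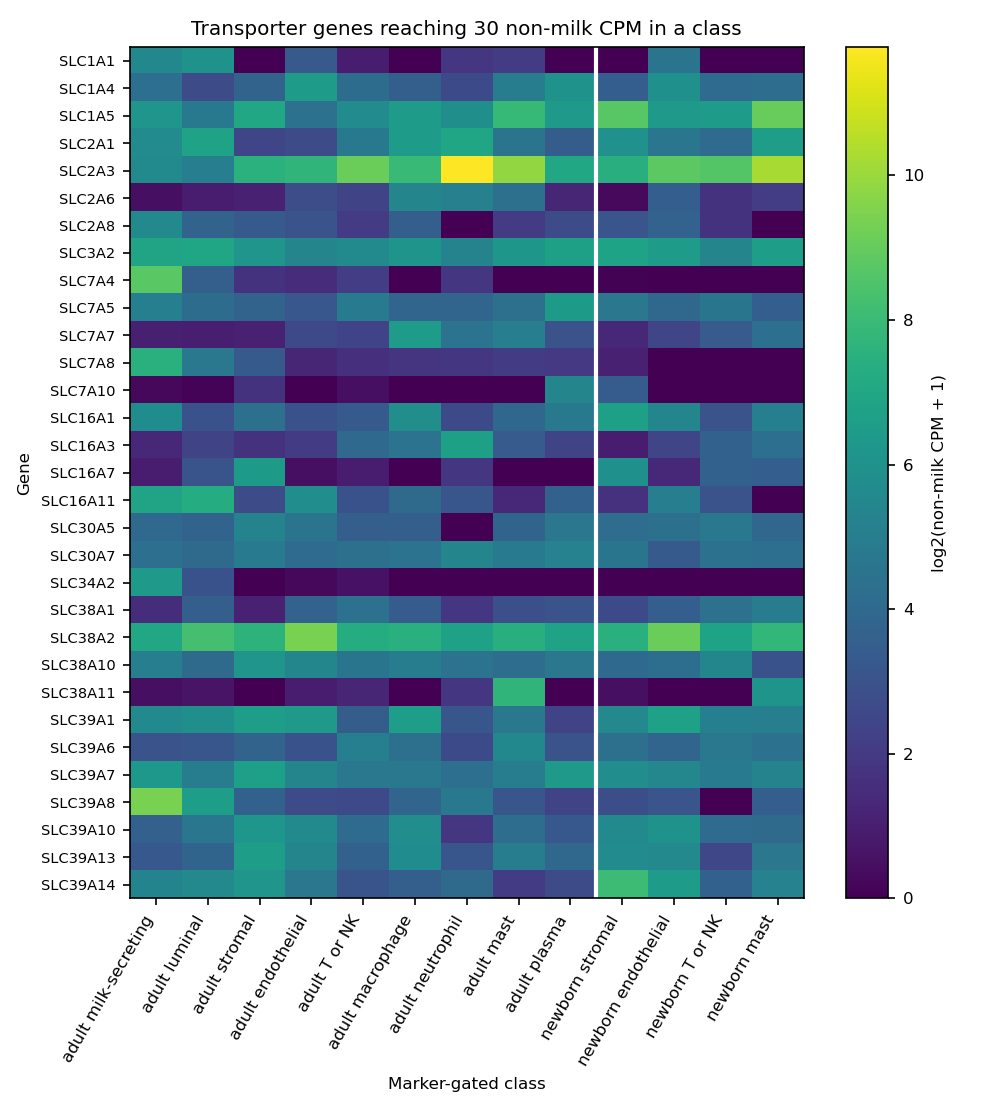
Level of each transporter gene that reached 30 non-milk CPM in some class (rows) in each marker-gated class (columns), as log2 of non-milk CPM plus 1, with adult classes left of the white line and newborn classes right of it. SLC39A8, SLC7A4, SLC7A8 and SLC34A2 stand out in the milk-secreting column, SLC38A2 in endothelial and SLC2A3 in neutrophil barcodes.

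SLC39A8, SLC7A4, SLC7A8 and SLC34A2 had their highest level among the 5 adult classes in milk-secreting barcodes on both scales. The luminal class, the other epithelial class, is the nearest comparison. Of the 87 members 28 had enough UMIs to be compared (20 or more over both classes and 10 CPM in the higher one), and a difference of 2-fold or more was counted. On all UMIs, 2 members were higher (1.38% of all 6947 genes compared were) and 19 were lower (92.2% of all genes). On non-milk UMIs, 9 were higher (8.32% of all genes) and 5 lower (21.4% of all genes). The median log2 ratio over the members was -1.75 and over all genes -2.30 on all UMIs, and 0.29 and -0.25 on non-milk UMIs. A member that reached the minimum only through the class in which it is high had to differ, so these counts describe the members compared and not all 87.

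SLC39A8, a carrier of zinc and manganese into the cell, was the member with the most UMIs in milk-secreting barcodes. Its level was 162 CPM (157 to 168) in milk-secreting, 94.5 CPM in luminal, 11.2 CPM in stromal, 5.57 CPM in endothelial and 5.89 CPM in immune barcodes. Both epithelial classes lay above the other 3 with no overlap of their intervals. The ratio to luminal barcodes was 1.72 (1.61 to 1.84), short of 2-fold, and 7.08 on non-milk UMIs. A UMI of SLC39A8 was found in 84.4% of milk-secreting, 54.5% of luminal and 1.503% of T or NK barcodes. After each barcode was thinned to 1000 non-milk UMIs, which left out 35 milk-secreting, 47 luminal and 391 T or NK barcodes, the shares were 46.8%, 9.65% and 0.520%. The T or NK share is at the level of free RNA: those barcodes held 112 UMIs of SLC39A8, and 105 follow from the casein CSN2 in them at the ratio seen in milk-secreting barcodes. Before thinning, the median non-milk depth was 9465, 11719 and 2699 UMIs.

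SLC7A4, a member of the cationic amino acid carrier branch whose substrate is not settled, had the largest ratio to luminal barcodes. It stood at 104 CPM (99.3 to 108) in milk-secreting, 10.7 CPM in luminal, 2.24 CPM in stromal, 1.77 CPM in endothelial and 3.00 CPM in immune barcodes. The ratio to luminal barcodes was 9.69 (8.16 to 11.6) on all UMIs and 39.95 (33.7 to 47.8) on non-milk UMIs. Thinned to 1000 non-milk UMIs, 33.2% of milk-secreting and 0.699% of luminal barcodes held a UMI (81.4% and 15.1% before thinning), against 0.387% of T or NK barcodes. The ratio of SLC7A4 to luminal barcodes was larger than that of SLC39A8 on both scales, and their intervals did not overlap.

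SLC7A8, the light chain of an exchanger of neutral amino acids, and SLC34A2, the sodium-phosphate cotransporter of secretory epithelia, were also higher in milk-secreting than in luminal barcodes and lower outside the epithelium. SLC7A8 was at 42.9 CPM in milk-secreting, 24.8 CPM in luminal, 8.97 CPM in stromal, 1.38 CPM in endothelial and 2.14 CPM in immune barcodes, and its ratio to luminal was 1.73 (1.52 to 1.98), or 7.15 on non-milk UMIs. SLC34A2 was at 19.4 CPM in milk-secreting, 6.65 CPM in luminal, 0.196 CPM in endothelial and 0.413 CPM in immune barcodes, with 0 UMIs in stromal barcodes. Its ratio to luminal was 2.92 (2.30 to 3.72), and 12.02 on non-milk UMIs. Outside the epithelium SLC34A2 had 3 UMIs in endothelial and 11 in immune barcodes, against 385 in milk-secreting and 87 in luminal ones.

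**Figure D2:**
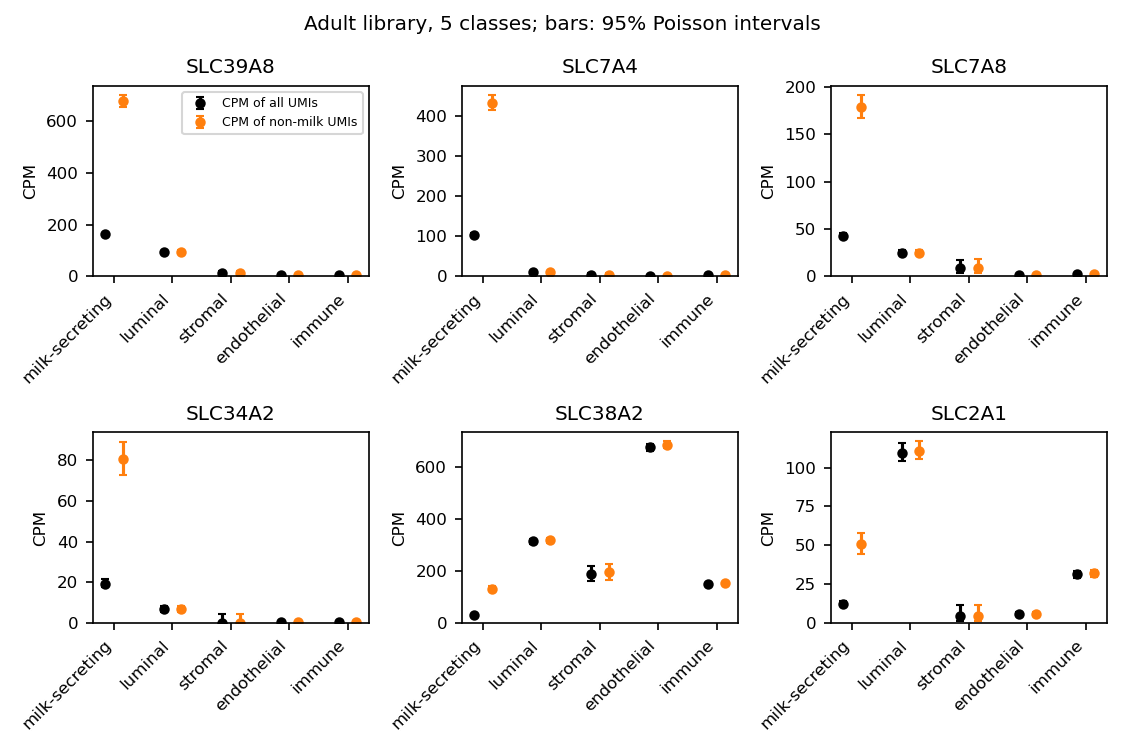
CPM of 6 transporter genes in the 5 adult classes (horizontal axis), on all UMIs (black) and on non-milk UMIs (orange), with exact 95% Poisson intervals. SLC39A8, SLC7A4, SLC7A8 and SLC34A2 are highest in milk-secreting barcodes on both scales, SLC38A2 is highest in endothelial barcodes at 678 CPM, and SLC2A1 in luminal barcodes at 109.7 CPM.

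Milk RNA was found in every adult class, so the low levels outside the epithelium were read beside it. CSN2, a casein, reached 1.05% of its milk-secreting level in luminal, 2.73% in stromal, 1.77% in endothelial and 2.85% in immune barcodes. At the ratio of member to CSN2 seen in milk-secreting barcodes, SLC7A4 would have 78.8 UMIs in immune barcodes, 28.1 in endothelial and 2.52 in stromal, and it had 80, 27 and 2. SLC34A2 would have 14.7 UMIs in immune barcodes and had 11. These levels are at that background and are not read as expression. Luminal barcodes differed from it: SLC7A4 had 140 UMIs where the CSN2 ratio gives 14.2, SLC34A2 87 where it gives 2.66, and SLC39A8 1236 where it gives 22.3. In endothelial barcodes SLC39A8 had 85 UMIs against 43.9. In immune barcodes it had 157 UMIs where the ratio gives 123, and SLC7A8 had 57 where it gives 32.6, so folds over the immune level of both rest largely on counts of the size that milk RNA gives. The CSN2 ratio covers free RNA of milk-secreting cells only. The 14 luminal markers summed to 427 CPM in immune and 290 CPM in endothelial barcodes, against 30689 CPM in luminal ones. What free luminal RNA adds to the expected counts was not tested.

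Among the glucose carriers, SLC2A1, the main basolateral glucose carrier of epithelia, was higher in luminal than in milk-secreting barcodes. It was at 12.2 CPM in milk-secreting, 109.7 CPM in luminal, 4.49 CPM in stromal, 5.44 CPM in endothelial and 31.2 CPM in immune barcodes. The luminal level was 9.002-fold (7.85 to 10.4) above the milk-secreting level on all UMIs and 2.18-fold above it on non-milk UMIs, so the order held on both scales. Its excess over stromal barcodes on all UMIs was above 2-fold but rested on 4 of 239 stromal barcodes with a UMI. With Leiden clusters in place of the gates, that excess of SLC2A1 turned to a log2 ratio of -0.054. Members higher than in stromal barcodes were then 6, against 7 with the gates. SLC2A8, an intracellular glucose carrier, was near equal on all UMIs at 11.4 CPM in milk-secreting and 12.4 CPM in luminal barcodes, and 3.79-fold higher in milk-secreting barcodes on non-milk UMIs. SLC2A3, a carrier with high affinity for glucose, was at 11.3 CPM in milk-secreting and 31.9 CPM in luminal barcodes, below the 179 CPM of stromal, 202 CPM of endothelial and 584 CPM of immune barcodes. On non-milk UMIs its order within the epithelium turned, with 47.2 CPM in milk-secreting and 32.2 CPM in luminal barcodes, a ratio of 1.47 (1.24 to 1.73).

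Among the other amino acid carriers, SLC38A1, SLC38A2 and SLC1A1 were higher in luminal than in milk-secreting barcodes, and SLC38A3 was lower. SLC38A2, a sodium-coupled carrier of small neutral amino acids, was at 31.7 CPM in milk-secreting, 316 CPM in luminal, 191 CPM in stromal, 678 CPM in endothelial and 149.9 CPM in immune barcodes. The luminal level was 9.97-fold (9.16 to 10.9) above the milk-secreting one, or 2.42-fold on non-milk UMIs. SLC38A1, of the same branch, was at 0.453 CPM in milk-secreting and 10.7 CPM in luminal barcodes, 23.6-fold higher in luminal (5.73-fold on non-milk UMIs). Thinned to 1000 non-milk UMIs, SLC38A2 was found in 11.8% of milk-secreting, 27.6% of luminal and 48.7% of endothelial barcodes, against 53.1%, 79.4% and 78.3% before thinning.

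SLC38A3, a glutamine carrier that was below the level for comparison, went the other way at 6.19 CPM in milk-secreting and 2.75 CPM in luminal barcodes (25.8 and 2.78 CPM on non-milk UMIs). SLC1A1, a glutamate carrier, was at 10.5 CPM in milk-secreting and 62.4 CPM in luminal barcodes, which is 5.93-fold lower on all UMIs and 1.44-fold lower on non-milk UMIs. SLC1A5, a carrier of glutamine and other neutral amino acids, was at 16.8 CPM in milk-secreting, 26.1 CPM in luminal, 131 CPM in stromal and 59.8 CPM in immune barcodes. On non-milk UMIs SLC1A5 was 2.65-fold (2.27 to 3.09) higher in milk-secreting than in luminal barcodes, at 69.9 and 26.4 CPM. The heavy chain SLC3A2 was at 28.3 CPM in milk-secreting and 125 CPM in luminal barcodes and the interval of their ratio held equality on non-milk UMIs (0.938, 0.851 to 1.03). Its light chain SLC7A5, an exchanger of large neutral amino acids, was at 7.95 and 17.0 CPM on all UMIs and, in the opposite order, at 33.2 and 17.2 CPM on non-milk UMIs, a ratio of 1.93 (1.57 to 2.38).

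Monocarboxylate carriers split within the epithelium. SLC16A1, which moves lactate, was at 12.6 CPM in milk-secreting, 6.80 CPM in luminal, 19.1 CPM in stromal, 6.68 CPM in endothelial and 11.5 CPM in immune barcodes, with a ratio to luminal of 1.86 (1.45 to 2.39), or 7.66 on non-milk UMIs. SLC16A11 was at 27.6 CPM in milk-secreting, 153 CPM in luminal, 5.61 CPM in stromal, 53.2 CPM in endothelial and 7.13 CPM in immune barcodes. The luminal level of SLC16A11 was the higher one on both scales, by 5.55-fold and 1.35-fold. SLC16A7 was a stromal gene here, at 83.0 CPM in stromal against 0.201 CPM in milk-secreting and 7.34 CPM in luminal barcodes.

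Of the zinc carriers, SLC39A8 alone was higher in milk-secreting than in luminal barcodes on all UMIs among those compared. SLC39A7, which releases zinc from the endoplasmic reticulum, was at 18.4 and 29.5 CPM and 2.57-fold higher in milk-secreting barcodes on non-milk UMIs. SLC39A10 and SLC39A11 were lower in milk-secreting barcodes on both scales, by 8.68-fold and 10.9-fold on all UMIs and 2.11-fold and 2.64-fold on non-milk UMIs. SLC39A14, a carrier of zinc and iron, was at 9.16 and 44.7 CPM and did not reach 2-fold on non-milk UMIs, with a luminal excess of 1.18-fold.

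The SLC30A family summed to 14.2 CPM in milk-secreting and 49.5 CPM in luminal barcodes on all UMIs, and to 59.2 and 50.1 CPM on non-milk UMIs. SLC30A2, the vesicular carrier known for loading zinc into milk, had 8 UMIs in milk-secreting barcodes, 0.403 CPM (0.174 to 0.793), and 1 UMI in each of luminal, endothelial and immune barcodes. SLC30A4, a further vesicular zinc carrier, had 22 UMIs in milk-secreting barcodes, or 1.11 CPM, and was at 0.688 CPM in luminal barcodes (4.62 and 0.696 CPM on non-milk UMIs). The levels of SLC30A5, SLC30A7 and SLC30A9, which serve the secretory pathway and other compartments, were 2.57 to 4.43 CPM in milk-secreting and 10.8 to 15.9 CPM in luminal barcodes. On non-milk UMIs the ratios of these 3 to luminal barcodes were 1.22, 1.15 and 0.982, with intervals that held equality.

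**Figure D3:**
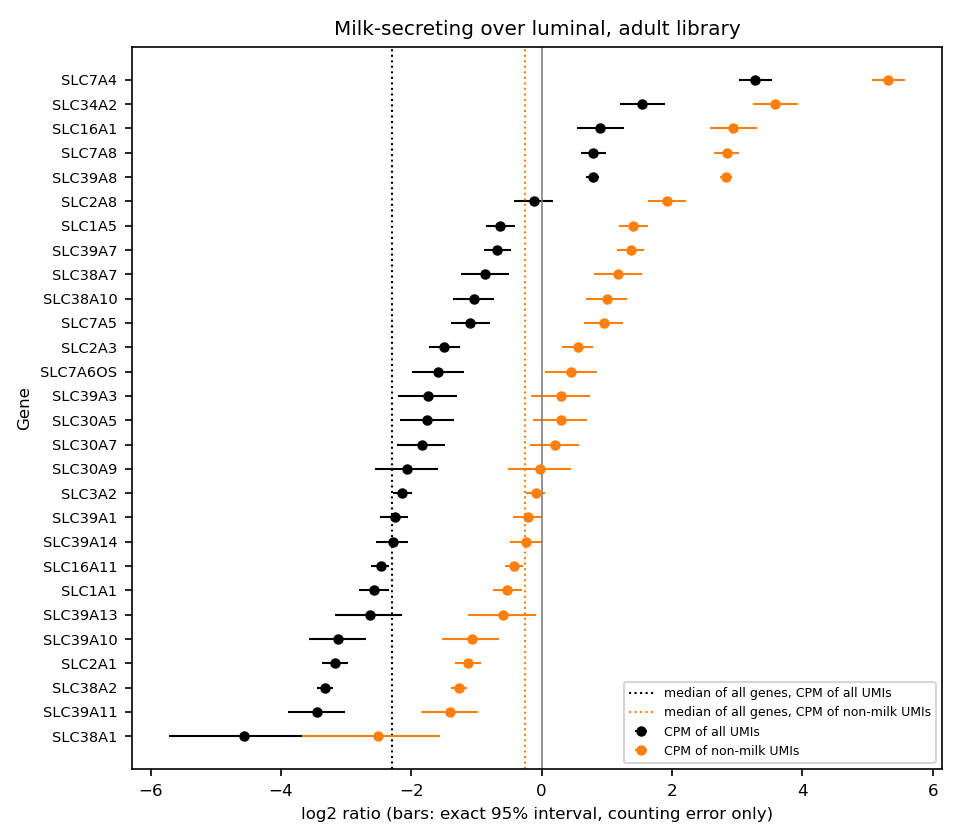
Log2 ratio of milk-secreting over luminal level for the 28 transporter genes with enough UMIs (rows), on all UMIs (black) and on non-milk UMIs (orange), with exact 95% intervals for counting error and the median of all genes as dotted lines. SLC7A4 is the highest point on both scales, with 9.69-fold and 39.95-fold, and SLC38A1 the lowest.

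Compared with stromal, endothelial and immune barcodes, the same few members led. Against stromal barcodes 7 of 30 members were higher (3% of all genes) and 20 lower (89.7% of all genes). SLC7A4 had the largest ratio, 46.2 (12.8 to 382) over 2 stromal UMIs, or a log2 ratio of 5.53, which was 3.56 with doubled gates and 3.53 with Leiden clusters. On non-milk UMIs 10 were higher (10.7% of all genes) and 9 lower (38% of all genes). SLC39A8 was 14.5-fold (7.86 to 30.2) and SLC7A8 4.79-fold (2.42 to 11.1) above the stromal level, and SLC34A2 and SLC1A1, with 0 stromal UMIs, were at least 5.76-fold and 3.13-fold higher, taking 3 UMIs as the floor. SLC16A7 was 412-fold (154 to 1552), SLC39A13 46.2-fold and SLC38A6 37.1-fold higher in stromal barcodes, and the same 3 kept 2-fold or more on non-milk UMIs (101-fold, 11.3-fold and 9.11-fold).

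Against endothelial barcodes 5 of 27 members were higher (3.32% of all genes) and 16 lower (90.7% of all genes). On non-milk UMIs 11 were higher (9.67% of all genes) and 7 lower (35.1% of all genes). The largest ratios were those of SLC34A2, 98.6-fold (33.5 to 480.4) over 3 endothelial UMIs, and SLC7A4, 58.6-fold (40.2 to 89.2), both over endothelial counts at the level of free milk RNA. SLC39A8 was 29.2-fold (23.5 to 36.6), SLC7A8 31.2-fold (20.3 to 50.7) and SLC2A1 2.24-fold (1.74 to 2.91) higher in milk-secreting barcodes. SLC38A2 was 21.4-fold, SLC1A4, a carrier of serine and other neutral amino acids, 19.9-fold and SLC2A3 17.9-fold higher in endothelial barcodes. On non-milk UMIs these 3 excesses were 5.21-fold, 4.84-fold and 4.35-fold.

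Against immune barcodes 7 of 29 members were higher (5.56% of all genes) and 18 lower (80.5% of all genes). On non-milk UMIs 11 were higher (20% of all genes) and 7 lower (28.1% of all genes). SLC34A2 was 47.0-fold (26.0 to 94.9) and SLC7A4 34.6-fold (27.6 to 43.8) higher in milk-secreting barcodes, again over counts at the level of free milk RNA. SLC39A8 was 27.6-fold (23.5 to 32.6), SLC7A8 20.1-fold, SLC1A1 11.2-fold and SLC16A11 3.87-fold higher in milk-secreting barcodes. A UMI of SLC1A1 was found in only 22 of 8294 immune barcodes (0.265%). The part that free epithelial RNA, luminal RNA included, has in that low level was not tested. SLC2A3 was 51.6-fold (45.2 to 59.1) and SLC16A3, a carrier for lactate export, 44.6-fold higher in immune barcodes, or 12.7-fold and 11.0-fold on non-milk UMIs. Across the 3 comparisons the median log2 ratio of the members was -2.60, -1.85 and -1.80, beside -2.63, -2.60 and -2.20 for all genes. When the class sums were scaled so that the median of all genes is even, 11 members were higher against luminal barcodes (13% of all genes) and 3 lower (16.2%). Against stromal barcodes 12 were then higher (21.3% of all genes) and 6 lower (23.7%), against endothelial 13 (18.1%) and 7 (22.1%), and against immune 11 (23.3%) and 7 (24.6%). The 4 comparisons share the milk-secreting barcodes, so their ratios are not independent.

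The same can be put as the class in which each member was highest. With 20 UMIs over the 5 adult classes and 10 CPM in the highest, 37 members qualified on all UMIs. The highest class was read from point values, and the 10 CPM minimum applied to that class alone. A single UMI was 1.12 CPM in stromal barcodes and 0.0375 to 0.0764 CPM in the other classes compared, so stromal levels are the least certain. What this adds to the stromal counts was not tested. Of these, 4 were highest in milk-secreting barcodes (1.13% of all genes were), 7 in luminal (17.7%), 15 in stromal (34.3%), 4 in endothelial (28.8%) and 7 in immune barcodes (18.1%). On non-milk UMIs 10 of 38 were highest in milk-secreting barcodes (16.5% of all genes), 5 in luminal (12.3%), 14 in stromal (30.7%), 3 in endothelial (24.1%) and 6 in immune barcodes (16.5%). The additional 6 were SLC2A8, SLC7A5, SLC16A1, SLC38A3, SLC38A7, which carries glutamine out of lysosomes, and SLC39A3. Their place as highest rests on point values, and whether it exceeds counting error was not tested. The stromal group held SLC39A1, SLC39A7, SLC39A10, SLC39A13 and SLC39A14 on both scales.

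Within the milk-secreting class, some members went with how much milk protein RNA a barcode held. The 409 barcodes were split at the median milk protein share of 76.4% into 204 below (27862 UMIs in the median barcode) and 205 at or above it (48941 UMIs). The share is a range without a gap, with 165 barcodes within 5 percentage points of the median, and luminal markers were at a median of 89.8 and 80.4 per 10000 non-milk UMIs. Of 34 members with 20 UMIs, 8 had a counting interval wholly above equality in the upper group, 6 wholly below it, and 20 held it. Of all 8368 genes with 20 UMIs the interval lay above equality for 10.8% and below it for 13.7%.

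SLC34A2 was at 53.5 non-milk CPM in the lower and 111 in the upper group, a ratio of 2.07 (1.67 to 2.57). SLC38A3 was at 15.2 and 37.6 non-milk CPM, a ratio of 2.47 (1.67 to 3.73), and SLC7A4 at 335 and 539, a ratio of 1.61 (1.47 to 1.76). SLC1A5, SLC16A1 and SLC2A8 were also higher in the upper group, by 1.64-fold, 1.54-fold and 1.52-fold. In the other direction SLC7A8 was at 225 and 128 non-milk CPM, a ratio of 0.570 (0.493 to 0.657), and SLC1A1 and SLC16A11 had ratios of 0.557 and 0.640. SLC39A8 was at 689.7 and 662 non-milk CPM, with an interval of the ratio that holds equality (0.960, 0.895 to 1.03). The amino acid light chain SLC7A8 and its relative SLC7A4 thus went opposite ways within the class, although both were highest in it. These are counts over barcodes of 1 library, and the part that depth has in them was not tested.

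The luminal class was not uniform either. Clusters built without the transporter genes put 553 luminal barcodes into a cluster led by SAA3, M-SAA3 and LCN2, genes of the acute-phase and defence response, and 176 into a cluster whose leading genes include MUCL1 and BDA20. SLC39A8 was at 103 CPM (96.9 to 109) in the first and 15.04 CPM (9.53 to 22.6) in the second. SLC1A1 was at 69.7 and 7.85 CPM, and SLC3A2 at 131 and 66.7 CPM. SLC34A2 and SLC38A7 had 85 and 132 UMIs in the first cluster and 1 UMI each in the second, with ratios of 11.5 (2.01 to 459) and 17.9 (3.15 to 710). SLC39A8 and SLC34A2 were thus higher per UMI in the cluster led by SAA3. That cluster also held more UMIs of all genes, 1.13e+07 against 1.53e+06.

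The cluster with MUCL1 had the higher level of SLC2A1, SLC38A2 and SLC38A1. SLC2A1 was at 224 CPM there and 95.4 CPM in the cluster led by SAA3, and SLC38A2 at 611 and 279 CPM. SLC38A1 was at 38.6 and 6.99 CPM, the widest gap among SLC2A1, SLC38A2 and SLC38A1 at 5.52-fold. SLC7A4 was at 10.5 and 10.3 CPM, within counting error of each other. The median depth of the clusters was 7894 and 15052 UMIs.

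Outside the epithelium, several members differed widely between immune and endothelial types. SLC2A3 was at 3274 CPM in neutrophils, 918 CPM in mast cells and 542 CPM in T or NK cells of the adult, and at 1218 CPM in newborn mast cells. Thinned to 1000 non-milk UMIs it was found in 86.2% of the 94 neutrophil barcodes deep enough (289 were left out), 39.6% of T or NK and 4.01% of milk-secreting barcodes. Neutrophil barcodes were the shallowest, with a median of 885 UMIs, and had the largest milk protein share outside the milk-secreting class, 6.67%. SLC16A3 was also highest in neutrophils, at 96.0 CPM. SLC7A7, an exchanger that exports cationic amino acids, was at 87.2 CPM in macrophages against 31.0 CPM in mast cells and 4.01 CPM in T or NK cells. SLC7A10, a carrier of small neutral amino acids, was at 39.7 CPM in plasma cells and at most 0.401 CPM in T or NK cells, macrophages, neutrophils and mast cells of the adult. It was found in 9 of 59 plasma barcodes, whose median non-milk depth was 11480 UMIs. After thinning to 1000 non-milk UMIs it was found in 0 of 58, so its plasma level rests on few, deep barcodes.

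SLC38A11, of the amino acid carrier family with little known function, was a mast cell gene in both libraries. It was at 201 CPM in adult and 67.5 CPM in newborn mast cells, and at most 2.46 CPM in each other adult class. Thinned to 1000 UMIs it was found in 16.8% of adult and 7.41% of newborn mast barcodes, with 34.0% and 7.85% before thinning. In endothelial barcodes, sorted by marker sums into 174 blood and 1894 lymphatic ones, SLC38A2 was high in both at 628 and 704 CPM. SLC1A4 went with the lymphatic type (107 CPM against 11.3 CPM in blood endothelium), and SLC2A3 and SLC1A5 with the blood type (543 and 81.1 CPM against 159.7 and 12.7 CPM). SLC38A2 was high in the newborn endothelium too, at 553 CPM over 92 barcodes.

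**Figure D4:**
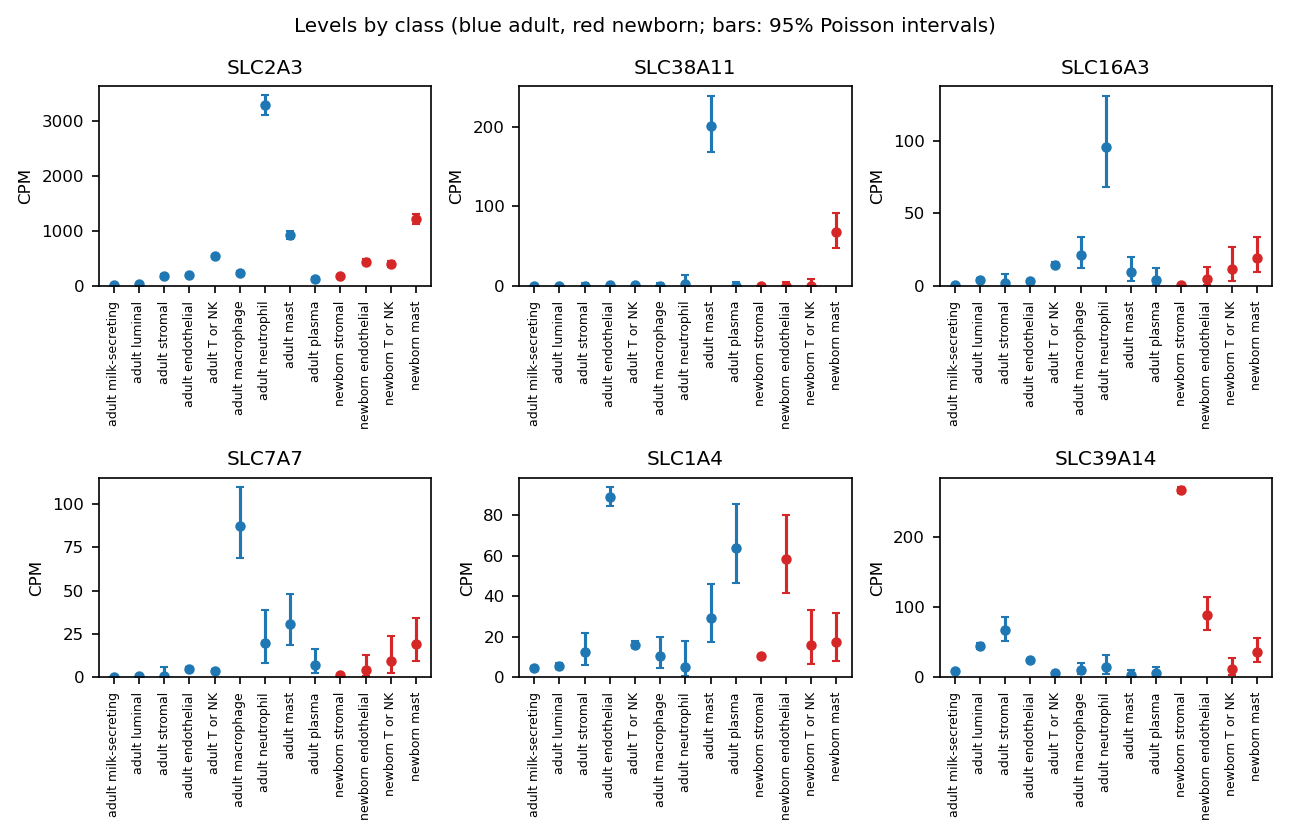
CPM of 6 transporter genes in each adult (blue) and newborn (red) class, with exact 95% Poisson intervals. SLC2A3 peaks in neutrophils at 3274 CPM, SLC38A11 in mast cells, SLC16A3 in neutrophils, SLC7A7 in macrophages, SLC1A4 in adult endothelial barcodes and SLC39A14 in newborn stromal barcodes at 267 CPM.

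Members were counted between stages in stromal barcodes only. The newborn library had no epithelial class, and its endothelial and immune classes held 92 and 564 barcodes. Of 27 members with enough UMIs 6 were higher in the newborn by 2-fold or more (8.01% of all 8053 genes were) and 7 lower (35.2% of all genes). With the highest Scrublet scores removed, 11 of 29 were lower (42.1% of all genes) and 8 higher (9.47%). The median log2 ratio was -0.26 over the members and -0.66 over all genes. On non-milk UMIs the counts were again 6 (7.54% of all genes) and 7 (36.4% of all genes). With the median of all genes set even, 10 members were higher (17.6% of all genes) and 3 lower (15.4% of all genes). The adult side rests on 239 barcodes and 891830 UMIs, the newborn side on 12159 barcodes and 61021050 UMIs, with a median of 2389 and 4801 UMIs per barcode. Adult stromal barcodes also held 2.20% milk protein UMIs, while in the newborn ones CSN2 and the other 3 casein genes were at 0.

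SLC2A1 had the largest ratio, at 61.2 CPM in newborn and 4.49 CPM (4 UMIs) in adult stromal barcodes, 13.6-fold (5.33 to 50.1). Its log2 ratio of 3.77 was 2.18 with Leiden clusters and 2.63 with doubled gates, below that of SLC16A1 in both (2.57 and 2.79), so its rank rests on the gate. SLC16A1 was at 102 and 19.1 CPM, 5.37-fold (3.35 to 9.22). SLC39A14 was at 267 and 67.3 CPM, 3.97-fold (3.08 to 5.20), and SLC1A5 at 425 and 131 CPM, 3.24-fold (2.70 to 3.92). With the highest Scrublet scores removed the log2 ratio of SLC39A14 went from 1.99 to 2.83. SLC7A6, an exchanger of cationic and neutral amino acids, was 2.87-fold (1.12 to 10.6) higher with 4 adult UMIs. SLC38A5, a glutamine carrier, had 1 adult UMI, with a ratio of 9.40 (1.68 to 372).

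Lower in newborn stroma were the zinc carriers SLC30A9, SLC39A11, SLC30A5 and SLC39A1, the amino acid carriers SLC38A10 and SLC38A6, and SLC7A6OS. SLC30A9 was at 5.24 CPM in newborn and 23.5 CPM in adult barcodes, 4.49-fold (2.74 to 6.98) lower. SLC38A10 was at 15.3 and 68.4 CPM, 4.47-fold (3.39 to 5.80) lower. The other 5 were 2.04-fold to 3.59-fold lower. SLC38A2 was at 175 and 191 CPM and SLC2A3 at 173 and 179 CPM, and the intervals of both ratios held equality (0.790 to 1.08 and 0.824 to 1.13).

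**Figure D5:**
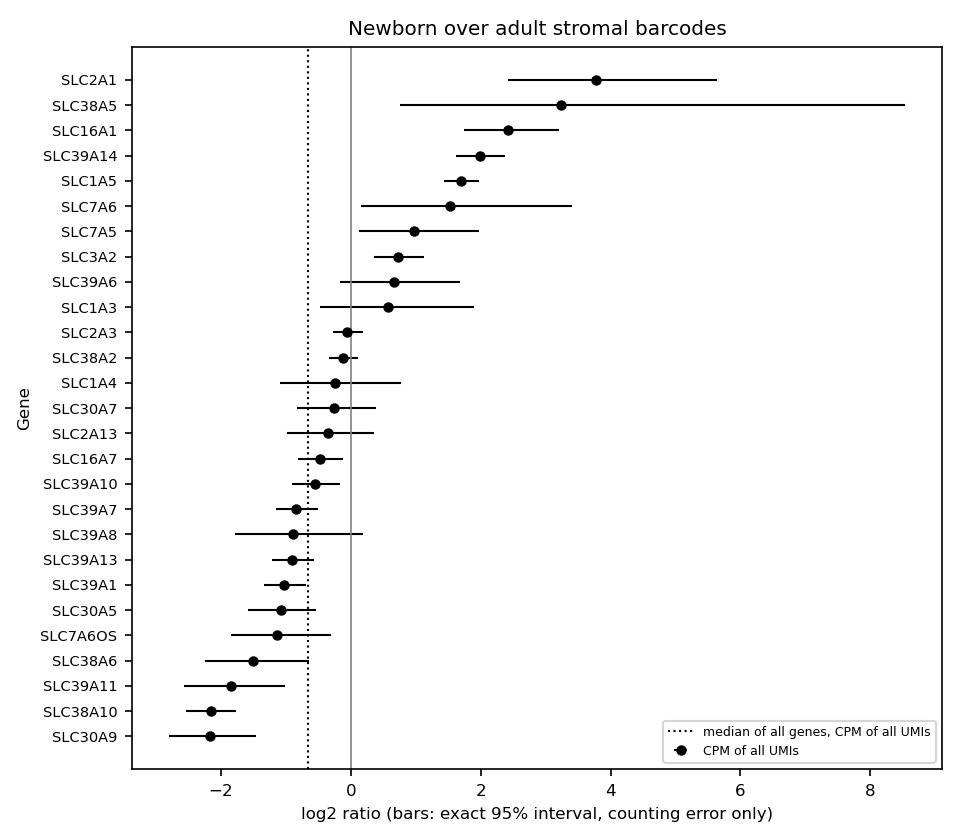
Log2 ratio of newborn over adult stromal level for the 27 transporter genes with enough UMIs (rows), with exact 95% intervals for counting error and the median of all genes (-0.66) as a dotted line. SLC2A1, SLC38A5, SLC16A1, SLC39A14, SLC1A5 and SLC7A6 lie above 2-fold, and the intervals of SLC2A1, SLC38A5 and SLC7A6 are wide because the adult class held 4 UMIs or fewer of each.

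In all, 3 lists of related genes were set beside the members: other carriers of milk constituents, the response to amino acid shortage, and zinc buffering. Of 34 other carriers found, 20 were compared between milk-secreting and luminal barcodes. On non-milk UMIs 9 were higher (8.32% of all genes were) and 6 lower (21.4% of all genes). On all UMIs 11 were lower (92.2% of all genes) and 6 higher (1.38% of all genes). The 6 were SLC27A6, a fatty acid carrier (134 against 6.80 CPM), CD36, also for fatty acids (166 against 77.6 CPM), FOLR1, the folate receptor (50.9 against 0.993 CPM), ABCG2, which exports riboflavin and drugs into milk (42.6 against 1.07 CPM), ATP2C2, a calcium pump of the secretory pathway (15.3 against 1.91 CPM), and AQP3, a water and glycerol channel (11.2 against 1.60 CPM). SLC20A1, the other type of sodium-phosphate carrier, was at 19.5 CPM in milk-secreting and 134 CPM in luminal barcodes (81.4 and 136 CPM on non-milk UMIs), opposite to SLC34A2.

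Of the amino acid response list, 6 of 11 genes were compared with luminal barcodes. On all UMIs 0 were higher (1.38% of all genes) and 5 lower (92.2%). On non-milk UMIs 1 was higher (8.32% of all genes) and 1 lower (21.4%). ATF4, the central transcription factor of that response, was at 125 CPM in milk-secreting and 409.8 CPM in luminal barcodes, and at 521 and 414 CPM on non-milk UMIs. The zinc buffering list has 5 symbols that stand for 6 gene entries because MT1E names a pair of them. Of these 5 were compared, with 0 higher (1.38% of all genes) and 4 lower (92.2%) on all UMIs. On non-milk UMIs 1 was higher (8.32% of all genes) and 1 lower (21.4%). MT2A, a metallothionein, was at 595 CPM in milk-secreting and 656 CPM in luminal barcodes, and at 2478 and 663 CPM on non-milk UMIs. Between stages in stromal barcodes, 4 of 4 zinc buffering genes compared were higher in the newborn (8.01% of all genes were), with MT2A at 5178 CPM against 299 CPM.

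The genes with the pattern most like that of SLC39A8 over the 5 adult classes, by the sum of squared differences of log2(CPM + 1), were PIGR, LBP, AZGP1, TFF3 and RAB3IP. PIGR, the receptor that carries immunoglobulin A across epithelia, was at 304 CPM in milk-secreting, 114 CPM in luminal, 5.61 CPM in stromal, 3.93 CPM in endothelial and 8.03 CPM in immune barcodes. On all UMIs LBP, AZGP1 and RAB3IP had their higher epithelial level in luminal barcodes, unlike SLC39A8. That order turns on non-milk UMIs, since milk protein genes hold 76.0% of milk-secreting and 1.12% of luminal UMIs. The patterns were matched on all UMIs only.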

How the data were processed

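Single-cell libraries of the mammary gland of 1 lactating adult and 1 newborn stage were used. Both deposited matrices hold whole-number UMI counts, not normalized. The submitters' processing notes name Cell Ranger 3.1.0. For the build, the annotation and the calling of cells the entry is "not given in the sources used here", and coordinates are left out. The lowest deposited barcode had 500 UMIs. The study states 24472 cells, against 15897 and 13772 deposited barcodes. Barcodes with at least 300 genes and at most 20% mitochondrial UMIs were kept, 14691 and 13710.

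Each class was gated on the sum of its markers per 10000 UMIs and on the number of markers detected, with thresholds set after the data were seen. Barcodes passing the gates of more than 1 lineage (402 and 201) were left out as possible doublets, and 1937 and 694 met no gate. Scrublet's own threshold marked none and was not used. UMIs were summed per class and scaled to CPM, with exact Poisson and conditional binomial intervals (scipy 1.17.1), covering counting error only. Genes were compared with 20 UMIs over both classes and 10 CPM in the higher, and counted at 2-fold. The steps were tested on simulated counts. Alternatives were other gate thresholds, scalings, cell filters, doublet removal, Leiden clusters (scanpy 1.11.5) and no minimum.

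Members, lists and markers were chosen with earlier results of these data known. Named genes were, in each comparison with the milk-secreting class, the 20 members with the highest level in it and the 5 with the largest ratio in each direction, between stages the 8 in each direction, and members highest in another class by 4-fold or more. Low members named for their known role or their place within the epithelium (SLC30A2, SLC30A4, SLC38A3) were chosen after their values were seen, as were the splits of the milk-secreting, luminal and endothelial classes.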

Additional observations from a re-analysis of the deposited data

How the results depend on the processing

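No paired analysis was possible because each stage has 1 library. Depth limits the comparisons with adult stromal barcodes most among the 5, with 891830 UMIs, and stage, animal and library cannot be told apart. Halved or doubled gates, a stricter cell filter, Leiden clusters and leaving out shared barcodes (chosen after seeing the data) kept the 10 counts of members within 1.5 times.

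Without the milk protein genes, which hold 76.0% of milk-secreting UMIs, members higher and lower were 9 and 5 against luminal, 11 and 7 against endothelial and 11 and 7 against immune barcodes, and 9 were lower against stromal ones. Log2 ratios that turned positive included, against luminal, SLC2A3 0.55, SLC7A5 0.95, SLC30A7 0.20 and SLC38A10 0.997. The ratios of SLC1A5, SLC2A8, SLC30A5 and SLC39A7 to luminal barcodes turned too, as given above. Against stromal they included SLC1A4 0.57 and SLC3A2 0.78. Against endothelial they included SLC7A6OS 0.15, SLC30A7 0.19, SLC39A7 0.95 and SLC39A14 0.63. Against immune they included SLC1A4 0.077, SLC1A5 0.19, SLC2A1 0.67, SLC7A5 0.22, SLC7A6OS 0.082 and SLC38A10 0.43. These lists are not complete.

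With median-of-ratios scaling, members higher and lower were 11 and 3 against luminal, 12 and 6 against stromal, 13 and 7 against endothelial, 11 and 7 against immune, and 10 and 3 between newborn and adult stromal barcodes. Log2 ratios that turned positive included, against luminal, SLC2A3 0.80, SLC3A2 0.16, SLC7A5 1.20, SLC30A7 0.45, SLC38A10 1.25, SLC39A1 0.040 and SLC39A14 0.010. Against stromal they included SLC1A4 1.16, SLC3A2 1.38, SLC30A7 0.023, SLC38A2 0.036 and SLC39A7 0.24. Against endothelial they included SLC7A6OS 0.71, SLC30A7 0.75, SLC38A10 0.19, SLC39A7 1.51 and SLC39A14 1.19. Against immune they included SLC1A4 0.25, SLC1A5 0.36, SLC2A1 0.84, SLC7A5 0.40, SLC7A6OS 0.26, SLC30A7 0.029 and SLC38A10 0.61. These lists are not complete either.

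With no minimum of UMIs or CPM more members were counted: 6 higher and 47 lower of 74 against luminal (1.65% and 78.4% of all genes), 55 lower of 71 against stromal (89.3%), 12 and 42 of 70 against endothelial (10.5% and 74%), 18 and 44 of 77 against immune (16% and 61.8%), and 10 and 44 of 77 between newborn and adult stromal barcodes (4.98% and 58.6%). With the highest Scrublet scores removed, 11 members were lower in newborn stromal barcodes (42.1% of all genes), and the cause was not tested. With Leiden clusters in place of the gates, the log2 ratio of SLC2A1 to stromal barcodes was -0.054, which turns its direction, and the cause was not tested.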
